A study of Mus musculus with 8 samples.

Results

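The 42 genes described here encode the machinery of mitosis: CDK1 and its cyclins, the mitotic kinases, the spindle checkpoint, the kinetochore, the spindle kinesins, the chromosomal passenger complex and the proteins that divide the cell. They were taken by name as known mitotic genes and not by a threshold on their values, though with earlier results of these data known. Every one of the 42 was found, each under 1 gene ID, among the 54838 gene rows of the count tables. RNA was measured by sequencing of polyadenylated transcripts in mouse embryonic fibroblasts (MEFs), primary connective tissue cells grown from embryos, in 8 libraries that make 4 groups of 2. The n-Sen_alkali and n-Sen_control groups were senescent MEFs kept for 24 h in HEPES-buffered medium set to an alkaline or to the control pH. The n-Sen group was senescent MEFs without a label for that medium, and the proliferating group was MEFs labelled as a control. Senescence was induced with nutlin3a, which blocks MDM2 and so stabilises p53, in cells first held in G2 by the CDK1 inhibitor RO3306. Nutlin3a alone followed for 48 h, and the cells then stayed for 14 days in medium with 100 nM BI-2536, an inhibitor of the kinase PLK1, to remove those that still divided. All 4 groups were grown with 10% fetal bovine serum at low oxygen. Strain, sex, number of embryos and passage are not given in the sources used here. Nothing in the labels says whether the libraries of a group came from separate cultures, so p-values cover only the spread between libraries. RO3306, nutlin3a, BI-2536 and the time in culture go with the n-Sen label and cannot be told apart from the senescent state.

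Mitotic genes are transcribed in a wave that peaks in G2 and mitosis. CDK1 with cyclin B starts mitosis, Aurora and Polo-like kinases build the spindle, and kinetochores attach chromosomes to its microtubules while the checkpoint delays anaphase until all are attached. The anaphase-promoting complex then releases separase, and the chromosomal passenger complex moves to the midzone, where the cleavage furrow forms. In the textbook account, the repressor complex DREAM, which forms when p53 and p21 are active, and the activators B-MYB and FOXM1 act on the promoters of these genes through a short element called the cell cycle genes homology region (CHR). NF-Y binds CCAAT boxes beside it.

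The promoters are shown as a description. The genes were chosen by name as mitotic genes, the class for which the textbook account names the CHR and CCAAT boxes. A high share of promoters with these letters could follow from that choice, and its link to the fall was not tested. RefSeq (GRCm38.p6, the build also called mm10) gave 37 promoters, from 250 bases before to 50 bases after a transcript start, for 35 of the 42 genes. The genes not matched were Ccna2, Cdc25c, Tpx2, Aurkb, Incenp, Ska1 and Kif20a. The letters searched for the CHR were TTTGAA and TTTAAA, and those for the NF-Y box were CCAAT, each on either strand. CHR letters were in 32 of the 37 promoters (86.5%), against 9062 of all 32851 promoters of the same length (27.6%). CCAAT was in 28 of the 37 (75.7%), against 37.4% of all promoters, and both were in 26 (70.3%), against 10.7%. A CHR match that started within 50 bases of the transcript start was present in 28 of the 37 (75.7%), against 8.28% of all promoters. Matches of the 2 motifs shared bases in 1 of the 37 promoters and in 66 of all promoters.

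The 110 bases before the start are given for 8 genes with both sets of letters there and for Mad2l1, which has neither. These 9 were picked after the letters were seen. CHR and CCAAT matches are in capitals, on whichever strand they lie, and each sequence runs 5′ to 3′ toward the gene.
Ccnb1: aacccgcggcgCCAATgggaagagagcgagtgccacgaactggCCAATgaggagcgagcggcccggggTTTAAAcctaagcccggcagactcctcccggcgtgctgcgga
Cdk1: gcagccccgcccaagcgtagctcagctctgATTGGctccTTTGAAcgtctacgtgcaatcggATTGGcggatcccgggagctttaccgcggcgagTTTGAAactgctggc
Cdc20: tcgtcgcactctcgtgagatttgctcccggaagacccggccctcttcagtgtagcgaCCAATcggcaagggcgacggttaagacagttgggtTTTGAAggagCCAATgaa
Ube2c: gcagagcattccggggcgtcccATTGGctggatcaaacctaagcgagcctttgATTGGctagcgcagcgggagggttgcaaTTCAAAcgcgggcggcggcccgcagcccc
Espl1: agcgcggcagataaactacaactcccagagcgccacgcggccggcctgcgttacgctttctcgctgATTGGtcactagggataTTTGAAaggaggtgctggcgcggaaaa
Top2a: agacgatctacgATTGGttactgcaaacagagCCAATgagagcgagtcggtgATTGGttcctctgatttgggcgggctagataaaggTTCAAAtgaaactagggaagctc
Prc1: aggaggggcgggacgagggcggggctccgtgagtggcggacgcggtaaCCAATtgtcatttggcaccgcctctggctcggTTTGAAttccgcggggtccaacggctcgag
Kif11: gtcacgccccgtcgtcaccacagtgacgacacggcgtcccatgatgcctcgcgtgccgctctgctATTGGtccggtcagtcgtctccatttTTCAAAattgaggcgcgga
Mad2l1: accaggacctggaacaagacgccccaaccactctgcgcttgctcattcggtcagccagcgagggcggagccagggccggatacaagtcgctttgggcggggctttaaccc

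Their places are chr13:100786487-100786596 on the minus strand for Ccnb1, chr10:69352913-69353022 (minus) for Cdk1, chr4:118437344-118437453 (minus) for Cdc20 and chr2:164769819-164769928 (plus) for Ube2c. Those of the others are chr15:102296183-102296292 (plus) for Espl1, chr11:99024190-99024299 (minus) for Top2a, chr7:80294366-80294475 (plus) for Prc1, chr19:37376272-37376381 (plus) for Kif11 and chr6:66535111-66535220 (plus) for Mad2l1. In Ccnb1 a TTTAAA began 42 bases before the start, downstream of CCAAT boxes at 67 and 99 bases. In Kif11 and Espl1 the CHR letters began 19 and 27 bases before the start, each with 1 CCAAT box on the opposite strand further upstream, at 45 and 44 bases. In Top2a 3 CCAAT boxes lay in the stretch printed, at 58, 78 and 98 bases. A match is a run of letters and not a shown binding site. A promoter without one may hold the element in another spelling or near another transcript start. For Mad2l1 the annotation GENCODE vM21 starts the gene at 66535390, downstream of the stretch printed.

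**Figure D1:**
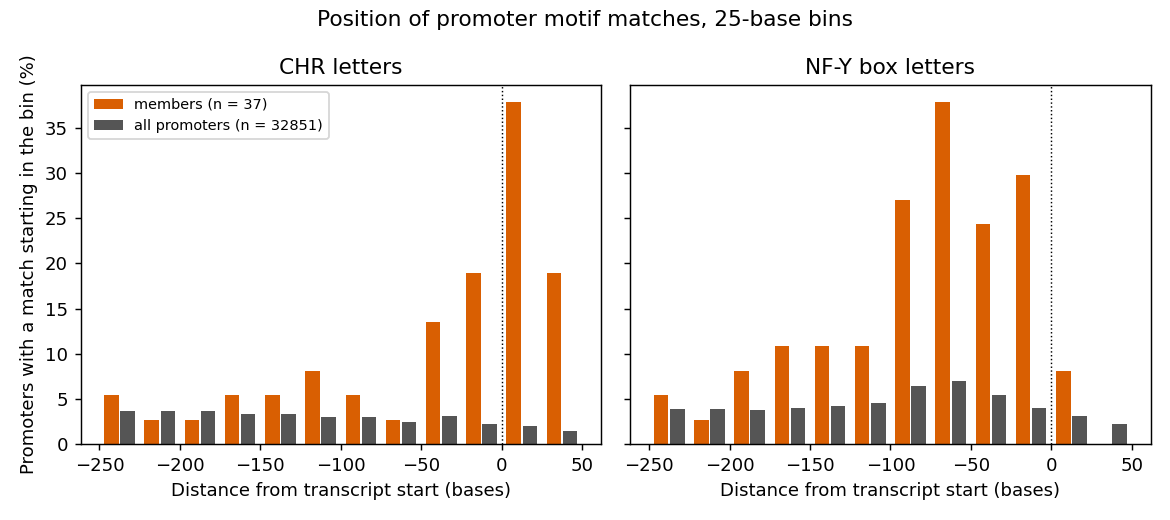
Share of promoters with a CHR match (left) or a CCAAT match (right) that starts in each bin of 25 bases, against the distance from the transcript start in bases, for 37 promoters of the mitotic genes (orange) and all 32851 promoters (grey). Of the 37 promoters of the mitotic genes, 28 held at least 1 CHR match within 50 bases of the start, and their CCAAT matches lie mostly before it.

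Depth was similar in all libraries, with 40608517 to 54183060 counts each. The 2 libraries of a group differed by more than sampling noise (chi-square per degree of freedom 4.63 to 7.39), so none was taken for a repeat of another. Levels are in CPM, counts scaled to library size, with TMM scaling over all 8 libraries together. The fibroblast label was checked on 12 fibroblast markers, which summed to 17800 to 18000 CPM in n-Sen and 11500 to 11800 CPM in proliferating cells, with 9 higher and 3 lower in n-Sen and none at 0. Markers of macrophages moved with senescence: all 20 rose in n-Sen, with sums of 1280 to 1360 CPM in n-Sen and 58.6 to 66.1 CPM in proliferating cells, and none was at 0. Summed endothelial markers (8 genes) were 8.65 to 9.76 CPM in n-Sen and 27.3 to 33.6 CPM in proliferating cells, with 2 higher and 2 lower of 5 tested and Cldn5 at 0 in both. Summed epithelial markers (8 genes) were 8.71 to 9.17 CPM in n-Sen and 78.0 to 86.6 CPM in proliferating cells, with 1 higher and 4 lower of 6 tested. Epcam and Krt8 were at 0 in n-Sen and Esrp1 was at 0 in proliferating cells. Their part in the levels of the mitotic genes was not tested. In bulk RNA, fewer cells in the cycle and less RNA per cell cannot be told apart.

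In n-Sen cells all 42 mitotic genes fell relative to proliferating cells, by a median of 4.88 on the log2 scale. The smallest fall was that of Incenp (8.65-fold) and the largest that of Ska1 (68.3-fold). A gene was said to rise or fall when its adjusted p in edgeR's quasi-likelihood test was under 0.05. Of all 19264 genes tested, 33.1% fell and 34.0% rose, and the median log2 fold change over all of them was 0.001. For all 42, each n-Sen library was under each proliferating one, as was the case for 41.5% of all genes. The fall was at least 4 on the log2 scale for 35 of the 42 and at least 5 for 18. By role, the median log2 fold change was -5.41 for the chromosome structure genes, -5.22 for checkpoint and anaphase genes, -5.08 for the kinetochore, -5.03 for the spindle kinesins, -4.58 for CDK1 and its cyclins, -4.38 for mitotic kinases and spindle pole partners, -4.36 for cytokinesis and -4.23 for the chromosomal passenger complex. Each value that follows as a log2 fold change carries its SE, and each pair of CPM gives replicate 1 and then replicate 2.

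**Figure D2:**
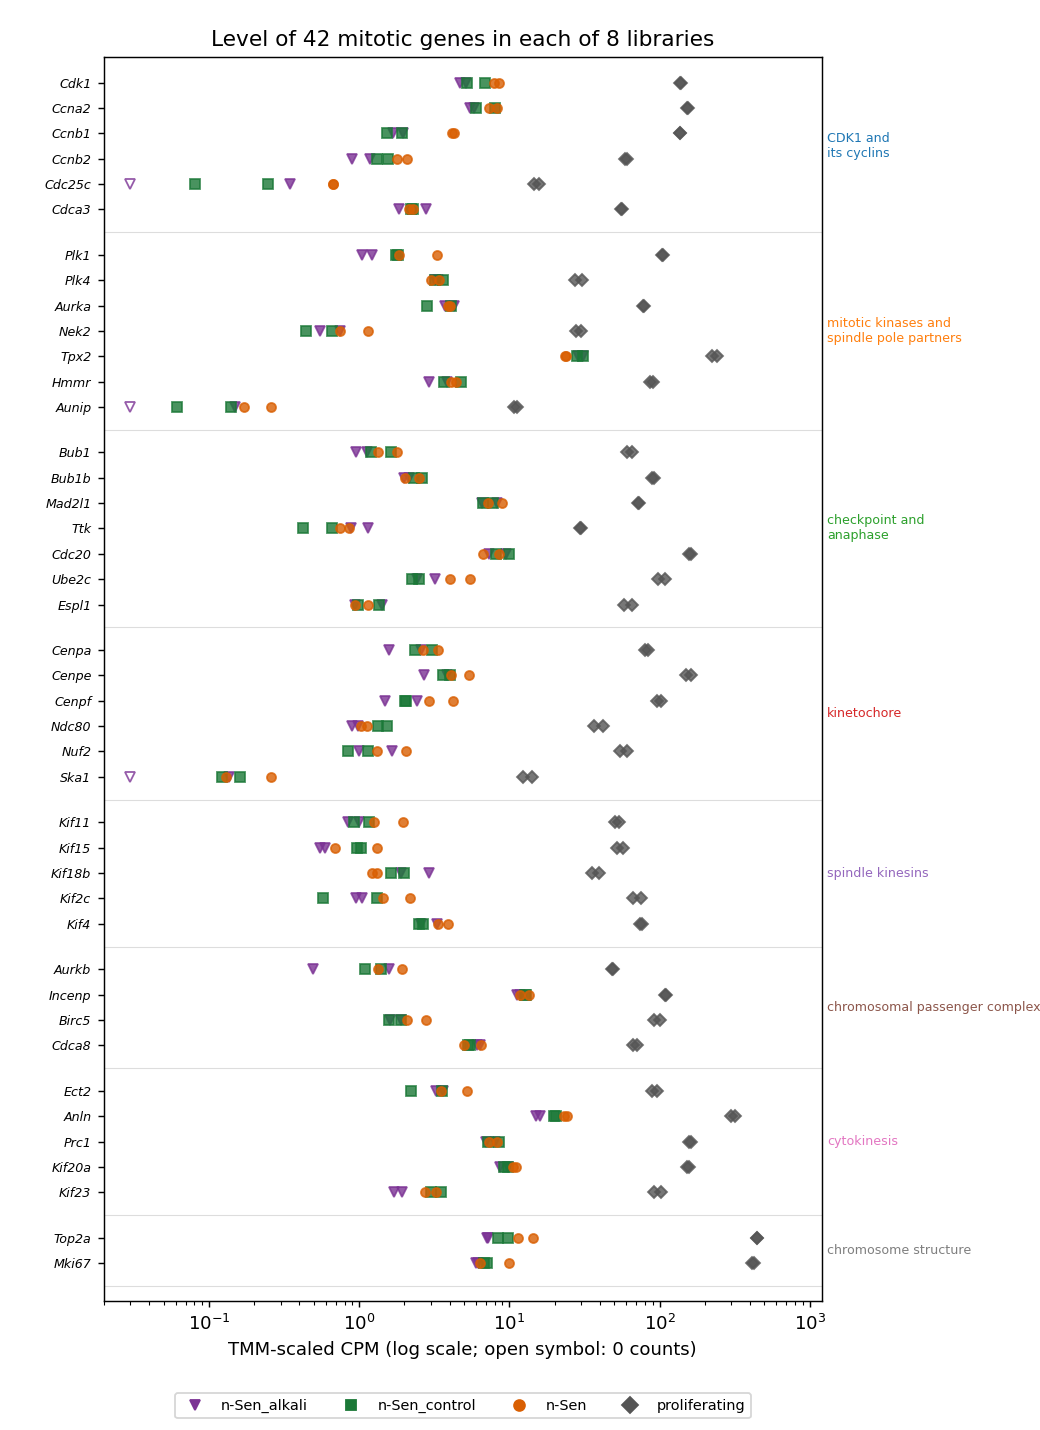
TMM-scaled CPM on a log axis for each of the 42 genes, ordered by role, with 1 symbol per library for n-Sen_alkali, n-Sen_control, n-Sen and proliferating cells (open symbols: 0 counts). Every gene's 2 proliferating libraries stand apart to the right of all 6 senescent libraries, among which the symbols of most genes lie close together.

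CDK1, the kinase that drives entry into mitosis, and its partners lost most of their transcripts. Cdk1 (chromosome 10, 69335146 to 69352938 on the minus strand) had 8.51 and 7.85 CPM in n-Sen, against 137 and 140 CPM in proliferating cells, a log2 fold change of -4.08 ± 0.0746. Ccna2, the cyclin of S and G2 phase, had 8.28 and 7.28 CPM in n-Sen, against 153 and 155 CPM in proliferating cells (-4.31 ± 0.0766). Ccnb1, the cyclin of mitotic entry, fell further than either. It had 4.29 and 4.17 CPM in n-Sen, against 136 and 137 CPM in proliferating cells (-5.01 ± 0.0797). Ccnb2, the second B-type cyclin (-4.95), and Cdca3, which helps degrade the CDK1 inhibitor WEE1 (-4.66), also fell. Cdc25c, the phosphatase that activates CDK1, had 0.665 and 0.667 CPM in n-Sen (31 and 36 counts), against 14.5 and 15.8 CPM in proliferating cells (-4.50 ± 0.181). For all 6 of these genes the highest n-Sen library was far under the lowest proliferating one.

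Among the kinases and their partners at the spindle pole the falls were uneven. Plk1, the kinase that BI-2536 inhibits, had 3.32 and 1.85 CPM in n-Sen, against 105 and 104 CPM in proliferating cells, a log2 fold change of -5.36 ± 0.135. Plk4, which starts centriole duplication, had 3.00 and 3.41 CPM in n-Sen, against 30.5 and 27.4 CPM in proliferating cells (-3.17 ± 0.124). Per kilobase of merged exon, a rough scale for comparing genes, Plk1 stood at 1.18 CPM in n-Sen and 47.5 CPM in proliferating cells. Plk4 stood at 0.468 CPM in n-Sen and 4.22 CPM in proliferating cells. Merged exons take in all annotated transcripts of a gene, so they can be longer than the RNA made. Tpx2, which activates Aurora A and nucleates spindle microtubules, kept 23.6 and 23.7 CPM in n-Sen, against 242 and 224 CPM in proliferating cells (-3.30 ± 0.0629). Log2 fold changes were -4.30 for Aurka, the Aurora A kinase itself, -4.38 for Hmmr, a spindle assembly factor, and -4.96 for Nek2, a centrosome kinase. Aunip, which recruits Aurora A to the pole, had 0.172 and 0.259 CPM in n-Sen (8 and 14 counts), against 11.2 and 10.8 CPM in proliferating cells (-5.63 ± 0.242).

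The spindle checkpoint kinases fell by close to the same amount, and their partner Mad2l1 by much less. Bub1 had 1.78 and 1.33 CPM in n-Sen, against 61.0 and 65.3 CPM in proliferating cells (log2 fold change -5.35 ± 0.122), and Bub1b had 2.49 and 2.02 CPM in n-Sen, against 91.9 and 89.3 CPM in proliferating cells (-5.33 ± 0.101). Ttk, the kinase at the top of the checkpoint, fell by 5.22 on the log2 scale. Mad2l1, the MAD2 protein that binds and holds back Cdc20, had 8.90 and 7.24 CPM in n-Sen, against 73.4 and 71.9 CPM in proliferating cells (-3.17 ± 0.0935). The genes of anaphase also differed among themselves. Espl1, the separase protease that cuts cohesin, had 0.943 and 1.15 CPM in n-Sen, against 57.8 and 65.9 CPM in proliferating cells (-5.87 ± 0.132). Cdc20, the activator of the anaphase-promoting complex, had 8.58 and 6.63 CPM in n-Sen, against 162 and 157 CPM in proliferating cells (-4.39 ± 0.0894). Ube2c, the ubiquitin-conjugating enzyme of that complex, had 5.45 and 4.02 CPM in n-Sen, against 109 and 97.4 CPM in proliferating cells (-4.46 ± 0.108).

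All 6 kinetochore genes fell, with log2 fold changes from -6.04 to -4.76. Cenpa, the histone H3 variant that marks centromeres, had 2.68 and 3.33 CPM in n-Sen, against 83.7 and 80.5 CPM in proliferating cells (log2 fold change -4.76 ± 0.102). Cenpe, a kinesin that carries chromosomes to the spindle equator, had 5.36 and 4.09 CPM in n-Sen, against 149 and 162 CPM in proliferating cells (-5.05 ± 0.0974). Ndc80 and Nuf2, partners in the complex that grips microtubules, had log2 fold changes of -5.18 and -5.11, and Cenpf, of the outer corona, of -4.80. Ska1, which keeps kinetochores on shrinking microtubules, had 0.129 and 0.259 CPM in n-Sen, or 6 and 14 counts, against 14.1 and 12.4 CPM in proliferating cells (-6.04 ± 0.248). Its n-Sen counts are the fewest and its SE the largest of the 42, and its interval from -6.52 to -5.55 overlaps those of the next genes in size, Espl1, Kif15, Mki67 and Aunip.

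The 5 spindle kinesins fell, with log2 fold changes from -5.73 to -4.38. Kif11, the motor that pushes spindle poles apart, had 1.97 and 1.26 CPM in n-Sen, against 50.4 and 54.1 CPM in proliferating cells (log2 fold change -5.03 ± 0.139). Kif15, which can take over part of that work, had 0.686 and 1.31 CPM in n-Sen, against 51.8 and 56.9 CPM in proliferating cells (-5.73 ± 0.159). The 2 n-Sen libraries of Kif15 were further apart than those of most members, with 32 and 71 counts. Log2 fold changes were -5.30 for Kif2c, a microtubule depolymerase, -4.89 for Kif18b, a regulator of microtubule length, and -4.38 for Kif4, a chromosome-bound kinesin.

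The chromosomal passenger complex split. Aurkb, its kinase, had 1.33 and 1.93 CPM in n-Sen, against 48.1 and 48.8 CPM in proliferating cells (log2 fold change -4.88 ± 0.132), and Birc5 (survivin) fell by 5.29. Incenp, the scaffold of the complex, had 11.7 and 13.6 CPM in n-Sen, against 110 and 109 CPM in proliferating cells (-3.11 ± 0.0798). Cdca8 (borealin) had 6.48 and 4.98 CPM in n-Sen, against 70.3 and 66.3 CPM in proliferating cells (-3.58 ± 0.105). The 95% intervals of the 4 subunits were -5.50 to -5.08 for Birc5, -5.14 to -4.62 for Aurkb, -3.79 to -3.38 for Cdca8 and -3.26 to -2.95 for Incenp, so that those of the kinase and survivin did not reach those of the scaffold and borealin.

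In cytokinesis, Anln, the anillin scaffold of the contractile ring, had 24.1 and 23.0 CPM in n-Sen, against 300 and 316 CPM in proliferating cells (log2 fold change -3.71 ± 0.0619). Kif20a, a midzone kinesin (-3.85), and Prc1, the microtubule bundler of the midzone (-4.36), also fell. Ect2, the exchange factor that activates RhoA at the furrow, had 5.23 and 3.50 CPM in n-Sen, against 89.3 and 95.8 CPM in proliferating cells (-4.42 ± 0.119). Kif23, the motor part of centralspindlin, had 3.26 and 2.74 CPM in n-Sen, against 91.9 and 102 CPM in proliferating cells (-5.02 ± 0.102), the largest fall of these 5 genes.

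The 2 genes of chromosome structure had the largest median fall of the 8 roles. Top2a, the topoisomerase that untangles sister chromatids, had 14.3 and 11.5 CPM in n-Sen, against 447 and 448 CPM in proliferating cells (log2 fold change -5.12 ± 0.0778). Mki67, whose protein is the Ki-67 proliferation marker that coats mitotic chromosomes, had 9.88 and 6.37 CPM in n-Sen, against 410 and 427 CPM in proliferating cells (-5.70 ± 0.114). Adjusted p-values of the 42 genes in this comparison ran from 2.4e-18 (Top2a) to 1.16e-12 (Aunip). On the rough scale of CPM per kilobase of merged exon, the order of genes also depends on the annotated length. The highest level in n-Sen cells was that of Tpx2 (5.06 CPM per kb), ahead of Cdc20 (4.07), Incenp (2.93), Anln (2.60) and Kif20a (2.48). The lowest were those of Ska1 (0.0727) and Kif15 (0.0908). In proliferating cells the order was Cdc20 (85.3 CPM per kb), Tpx2 (49.8), Top2a (49.6) and Plk1 (47.5).

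**Figure D3:**
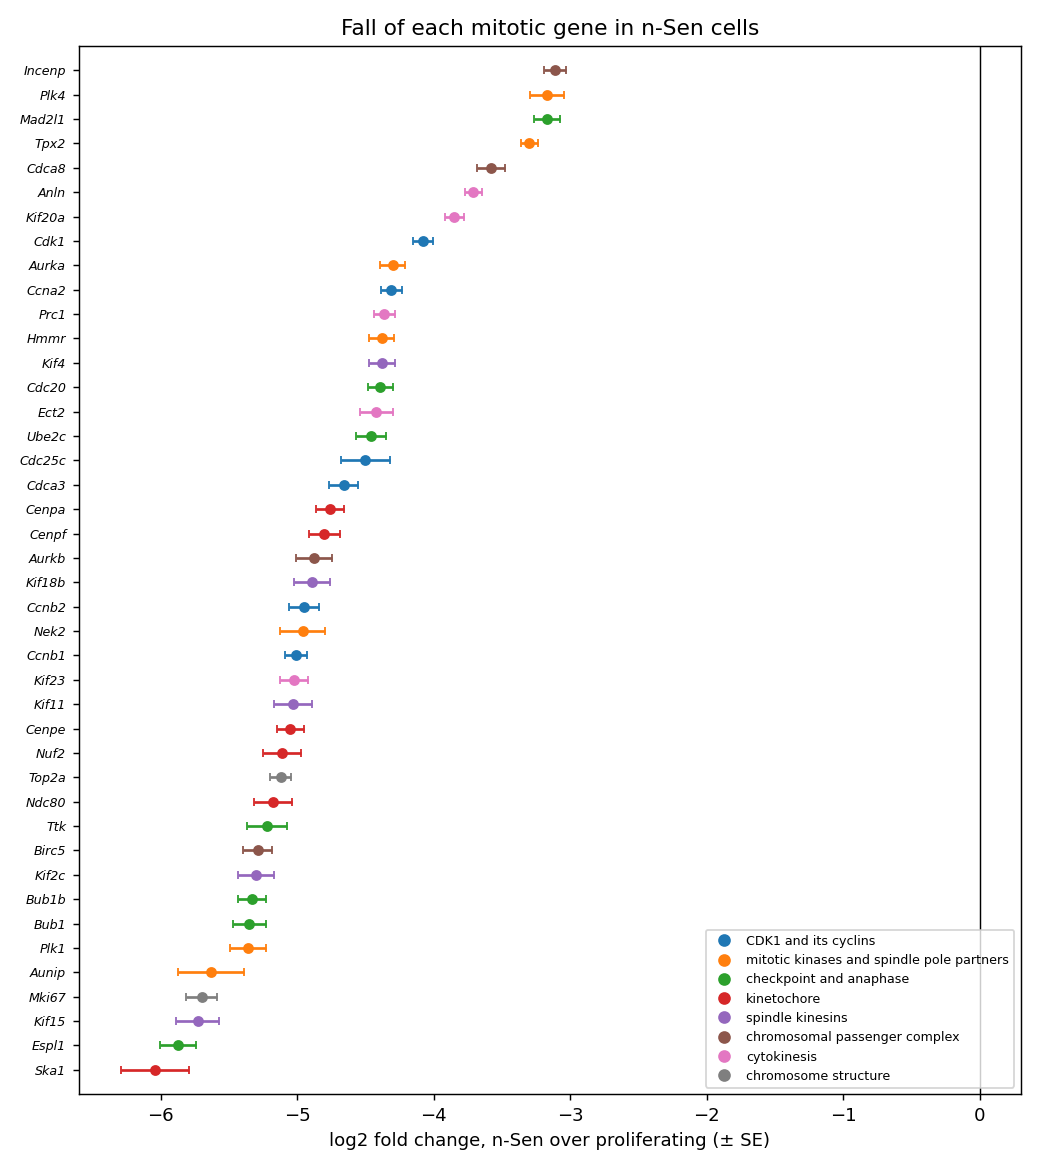
Log2 fold change of n-Sen over proliferating cells for each of the 42 genes, sorted from the smallest fall at the top, with bars for 1 SE and colours for roles. Incenp, Plk4, Mad2l1, Tpx2, Cdca8, Anln and Kif20a fell by less than 4, and Ska1, at -6.04, fell furthest.

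The fall was no larger in the median for genes with CHR letters than for those without. The median log2 fold change was -4.92 for the 30 genes with CHR letters and -5.11 for the 5 without (Nek2, Aunip, Bub1, Mad2l1 and Nuf2). Mad2l1, Nuf2 and Aunip had neither motif in the promoter searched. Mad2l1 was among the smallest falls at -3.17, while Nuf2 and Aunip had log2 fold changes of -5.11 and -5.63. Bub1, with CCAAT but without CHR letters, fell by 5.35. These values are a description over 35 genes and carry no test.

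Reads from overlapping genes may enter some of these levels. The exons of 10 of the 42 genes overlap those of a gene on the other strand in GENCODE vM21, among them Ccna2 with Exosc9, Plk1 with Gm44985, Cdc20 with Elovl1, Ube2c with Tnnc2, Prc1 with Rccd1 and Kif20a with Cdc23. The libraries were made to keep strand, but the strand setting of the counting is not given in the sources used here. Fractional counts, whose origin is not given in the sources used here, occurred in at least 1 library for 24 of the 42 and in all 8 libraries for Plk4. The part of either feature in the fold changes was not tested.

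A further 135 mitotic genes, listed from general knowledge by role, gave the wider setting. Of these, 112 fell (83.0%), 9 rose (6.67%) and 14 did not pass the test in n-Sen relative to proliferating cells. Of all genes tested, 33.1% fell and 34.0% rose. The median log2 fold change of the 135 was -1.76. Condensin, which compacts chromosomes, fell as a whole (8 of 8, median -3.38). So did the genes listed here as other kinetochore and checkpoint genes (17 of 17, median -2.26), a list that leaves out most Cenp genes. Ncapd2, a condensin subunit, had 6.56 and 7.22 CPM in n-Sen, against 186 and 184 CPM in proliferating cells (-4.74 ± 0.0741), and Kntc1, a checkpoint protein of the kinetochore, fell by 5.16. Of 24 other spindle assembly genes 22 fell (median -3.11). Another 17 genes were listed as inner centromere, most of them Cenp genes that also belong to the kinetochore. Of these, 15 fell, 1 rose and 1 did not pass (median -2.51). The gene that rose was Cenpp (0.63 ± 0.148). Hjurp, the chaperone that loads Cenpa, had 44.9 and 42.7 CPM in n-Sen, against 227 and 215 CPM in proliferating cells (-2.33 ± 0.0585), a smaller fall than that of Cenpa itself. Of 13 other genes that control CDK1, 12 fell and 1 rose (median -2.65). Fbxo5, which restrains the anaphase-promoting complex, fell by 5.36, and Ensa, an inhibitor of the phosphatase that opposes CDK1, rose by 0.91 ± 0.0609 on the log2 scale.

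Median changes were smaller for the anaphase-promoting complex, cohesin, centrosome and abscission genes. For the 16 subunits and partners of the anaphase-promoting complex the median was -0.46, with 12 lower and 2 higher. Ube2s, which extends the ubiquitin chains begun by Ube2c, fell by 1.58, and Anapc13 and Anapc16 rose by 0.30 and 0.20. For 15 cohesin and cohesion genes the median was -1.11, with 13 lower and 1 higher. That gene was Pttg1, the securin that holds separase inactive, which had 11.1 and 10.2 CPM in n-Sen, against 8.04 and 7.77 CPM in proliferating cells (0.43 ± 0.128, adjusted p = 0.00707 by edgeR's quasi-likelihood test). Its target Espl1 fell in the same cells by 5.87. The centrosome and centriole genes were lower in 10 of 11 (median -1.69), among them Stil (-3.20), which works with Plk4 in centriole assembly. Of 14 other genes of cytokinesis and abscission, 3 fell, 3 rose and 8 did not pass, with a median of 0.03. These shares, 21.4% each way, were under those of all genes (33.1% lower and 34.0% higher). Those that fell included Racgap1, the partner of Kif23 in centralspindlin, with 6.71 and 6.93 CPM in n-Sen, against 141 and 142 CPM in proliferating cells (-4.38 ± 0.0745). Sept7, a septin that also serves the cortex between divisions, rose by 0.43 and Chmp2a, an ESCRT subunit with other membrane duties, by 0.46.

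What remained of the 42 transcripts in senescent cells was small but above 0 for nearly all. Taking each gene's proliferating mean as 100%, the median over the genes was 2.73% and 2.45% in the n-Sen_alkali libraries, 2.88% and 2.57% in n-Sen_control and 3.66% and 3.36% in n-Sen. The 2 proliferating libraries lay between 93.4% and 107% of that mean for every gene. Summed over the 42 genes, the n-Sen_alkali libraries had 173 and 169 CPM, the n-Sen_control libraries 189 and 182 CPM, the n-Sen libraries 217 and 195 CPM, and the proliferating libraries 4433 and 4468 CPM. The sums of the 3 senescent groups did not overlap, and all were at most 4.88% of the proliferating mean. Sums weigh abundant genes most, and the medians of the n-Sen_alkali and n-Sen_control libraries did overlap. With 2 libraries per group, 28.1% of all genes were lower without overlap in n-Sen_alkali than in n-Sen_control. For n-Sen_control against n-Sen that share was 26.2%. Of the 42 genes, 39 had at least 10 counts in every library. The exceptions were Cdc25c, Ska1 and Aunip, which had 14 and 0, 0 and 6, and 6 and 0 counts in the n-Sen_alkali libraries.

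Incenp, Plk4, Mad2l1 and Tpx2 stood highest in each of the 3 senescent groups. Incenp stood at 10.5% of its proliferating mean in n-Sen_alkali, 11.8% in n-Sen_control and 11.6% in n-Sen. Plk4 was at 11.3% in n-Sen_alkali, 11.8% in n-Sen_control and 11.1% in n-Sen, and Mad2l1 at 10.2% in n-Sen_alkali, 9.95% in n-Sen_control and 11.1% in n-Sen. Tpx2 was at 12.8% in n-Sen_alkali, 12.7% in n-Sen_control and 10.2% in n-Sen. No other gene passed 10% as a group mean. At the low end, genes under 2% numbered 16 in n-Sen_alkali, 13 in n-Sen_control and 5 in n-Sen. Ska1 was at 0.515% in n-Sen_alkali, 1.07% in n-Sen_control and 1.46% in n-Sen, which rests on few counts. Mki67, with 243 to 461 counts in each senescent library, was at 1.46% in n-Sen_alkali, 1.66% in n-Sen_control and 1.94% in n-Sen.

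**Figure D4:**
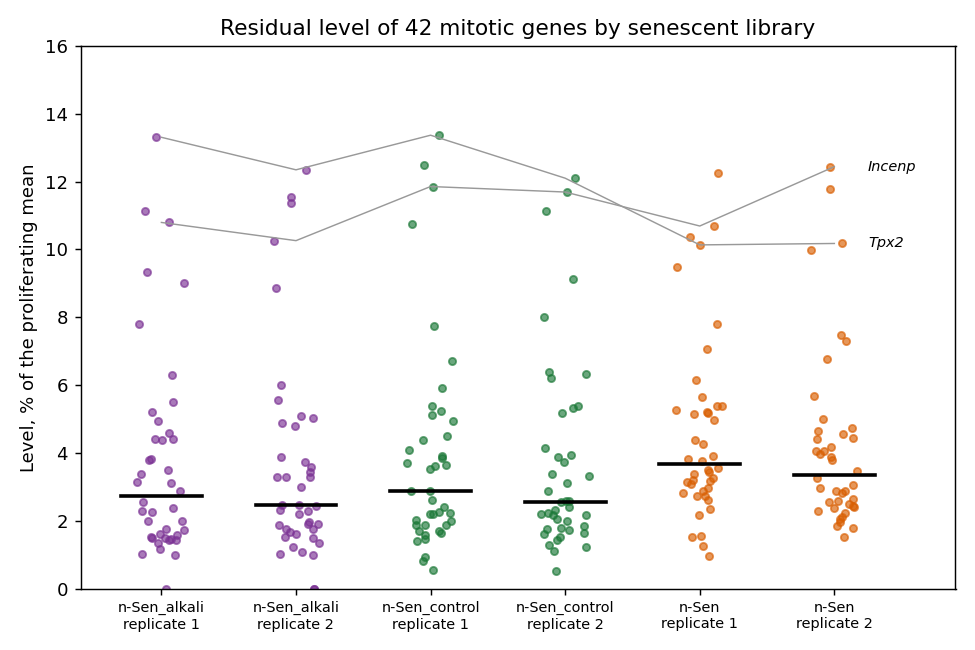
Level of each of the 42 genes in each of the 6 senescent libraries as a percent of the mean of the proliferating libraries, with a bar at the median of the library and grey lines that follow Incenp and Tpx2. Medians lie between 2.45% and 3.66%, and Incenp, Plk4 and Tpx2 lie above 10% in each library.

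The comparison of n-Sen_alkali with n-Sen_control asked what alkaline medium does to senescent cells. Cytokinesis genes Anln and Kif23 fell in it, and no other of the 42 passed the test. Of the 40 genes tested, 2 were lower, 0 were higher and 38 did not pass, while of all 19129 genes tested 10.4% were lower and 9.58% higher. The share of mitotic genes lower (5.00%) was under that of all genes. Their median SE was 0.23, against 0.126 for all genes, so the 2 shares were not measured with the same precision. Aunip and Ska1 had too few counts to enter. Anln had 16.1 and 15.0 CPM in n-Sen_alkali, against 20.6 and 19.7 CPM in n-Sen_control (log2 fold change -0.38 ± 0.0947, adjusted p = 0.00487 by edgeR's quasi-likelihood test). Kif23 had 1.93 and 1.71 CPM in n-Sen_alkali, against 3.53 and 3.02 CPM in n-Sen_control (-0.85 ± 0.225, adjusted p = 0.00777 by the same test). In both genes each alkaline library was under both control libraries. The call on Kif23 ended without n-Sen_control replicate 1 (-0.74, adjusted p = 0.0643 by edgeR) and with DESeq2 (-0.85, adjusted p = 0.0685).

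The median log2 fold change of the 40 genes was -0.07, against -0.009 for all genes. At an unadjusted p under 0.05 in edgeR's test, 4 of the 40 were lower and 0 higher. Of all genes, which had the smaller median SE, 30.7% passed that mark in either direction. The other 2 of these 4 were Plk1 and Top2a. Plk1 had 1.21 and 1.05 CPM in n-Sen_alkali, against 1.76 and 1.81 CPM in n-Sen_control (-0.67 ± 0.299, adjusted p = 0.127 by edgeR). Top2a had 7.11 and 7.21 CPM in n-Sen_alkali, against 8.41 and 9.85 CPM in n-Sen_control (-0.36 ± 0.134, adjusted p = 0.0631 by edgeR), and passed without n-Sen_control replicate 1 (adjusted p = 0.0323), with a replicate block (0.0477) and with all 8 libraries in 1 edgeR fit (0.0216). Ccna2 passed as lower without n-Sen_control replicate 2 (-0.51, adjusted p = 0.0307 by edgeR). Ttk leaned the other way, with 1.14 and 0.887 CPM in n-Sen_alkali, against 0.656 and 0.422 CPM in n-Sen_control (0.90 ± 0.442, adjusted p = 0.173 by edgeR), and its call changed only with all 8 libraries in 1 fit (adjusted p = 0.0209). Both alkaline libraries were under both control libraries for 13 of the 40 genes and over them for 2, against 28.1% and 28.6% of all genes.

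Intervals ran from narrow to wide among the genes that did not pass. For 29 of the 40 the 95% interval of the log2 fold change (1.96 SE either way) lay within 1 of 0. That bound is wider than the change called for Anln (-0.38), so a gene that did not pass was not shown to be unchanged. Tpx2 had 31.0 and 28.8 CPM in n-Sen_alkali, against 31.1 and 28.2 CPM in n-Sen_control, with an interval from -0.15 to 0.16. Incenp had 11.8 and 11.3 CPM in n-Sen_alkali, against 13.0 and 12.8 CPM in n-Sen_control, with an interval from -0.38 to 0.04. For these 2 genes the alkaline libraries were within or just under the control libraries. Cdk1 had 4.68 and 5.16 CPM in n-Sen_alkali, against 6.85 and 5.19 CPM in n-Sen_control, with an interval from -0.62 to 0.03 (adjusted p = 0.242 by edgeR's test). Ccnb1 had 1.96 and 1.68 CPM in n-Sen_alkali, against 1.93 and 1.53 CPM in n-Sen_control, with an interval from -0.46 to 0.60. Precision was poorest for Cdc25c, whose interval ran from -1.92 to 2.01. Macrophage markers summed to 1150 to 1160 CPM in n-Sen_alkali and 1250 to 1320 CPM in n-Sen_control, with 10 of 20 lower and 0 higher, and their part in these values was not tested.

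**Figure D5:**
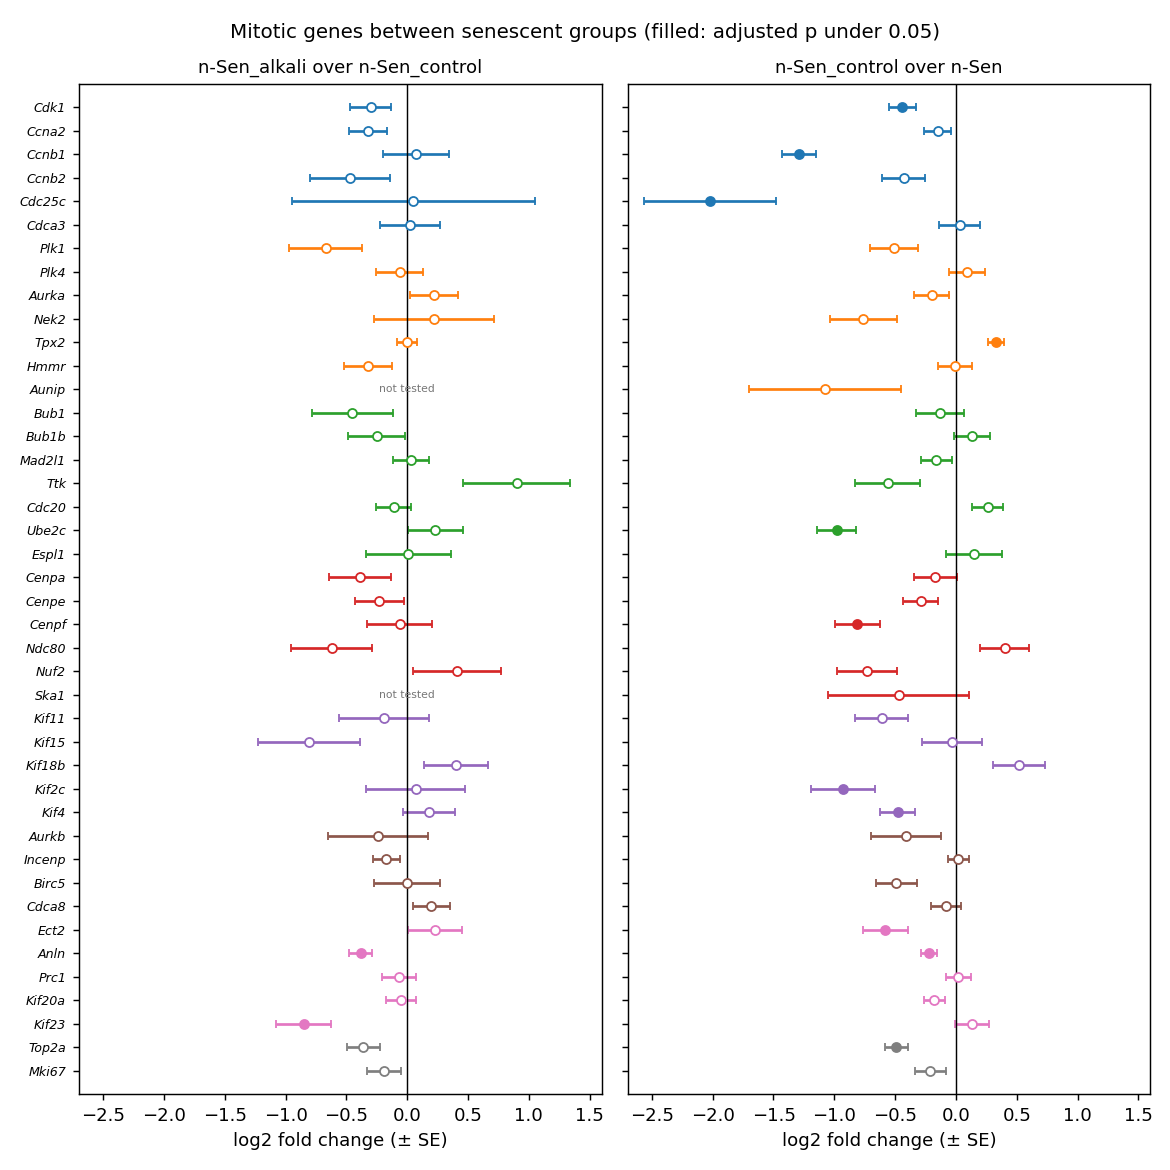
Log2 fold change with bars for 1 SE of n-Sen_alkali over n-Sen_control (left) and of n-Sen_control over n-Sen (right) for the 42 genes in the order of their roles, with filled points where the adjusted p was under 0.05. On the left, Anln and Kif23 are filled and Aunip and Ska1 were not tested. On the right, 11 points are filled, all but that of Tpx2 left of 0.

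The n-Sen_control libraries were also set against the n-Sen libraries, the senescent cells without the buffered medium label. These groups come from separate tables, and the medium, the 24 h in it and the table cannot be told apart. The comparison shares the n-Sen_control libraries with the one on alkaline medium. Of the 42 genes, 10 fell (23.8%), 1 rose (2.38%) and 31 did not pass, where of all 20215 genes tested 4.96% fell and 6.18% rose. The median log2 fold change was -0.22, against 0.0 for all genes, and 31 of the 42 values were below 0. Groups did not overlap with n-Sen_control lower for 19 genes and higher for 3, against 26.2% and 25.8% of all genes.

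Cyclin B1 showed the firmest fall. Ccnb1 had 1.93 and 1.53 CPM in n-Sen_control, against 4.29 and 4.17 CPM in n-Sen (log2 fold change -1.29 ± 0.136, adjusted p = 7.77e-07 by edgeR's quasi-likelihood test). Ube2c had 2.50 and 2.25 CPM in n-Sen_control, against 5.45 and 4.02 CPM in n-Sen (-0.98 ± 0.161, adjusted p = 0.000226 by edgeR). Both passed under every alternative run, with adjusted p of at most 9.69e-05 for Ccnb1 and 0.013 for Ube2c. Top2a had 8.41 and 9.85 CPM in n-Sen_control, against 14.3 and 11.5 CPM in n-Sen (-0.49 ± 0.0923, adjusted p = 0.000973 by edgeR). Cdk1, with 6.85 and 5.19 CPM in n-Sen_control, against 8.51 and 7.85 CPM in n-Sen, fell by 0.44 ± 0.112. Cenpf had 2.01 and 2.05 CPM in n-Sen_control, against 4.22 and 2.94 CPM in n-Sen (-0.81 ± 0.184). In each of these 5 genes both n-Sen_control libraries were under both n-Sen libraries.

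The other 5 that fell were Cdc25c (-2.02 ± 0.543, on 12 and 4 counts in n-Sen_control and 31 and 36 in n-Sen), Kif2c (-0.93 ± 0.264), Ect2 (-0.58 ± 0.184), Kif4 (-0.48 ± 0.143) and Anln (-0.22 ± 0.065). Of these, only Ect2 had groups that overlapped. Tpx2 rose, with 31.1 and 28.2 CPM in n-Sen_control, against 23.6 and 23.7 CPM in n-Sen (0.33 ± 0.0691, adjusted p = 0.00284 by edgeR). Kif23, which fell in alkaline medium, had 3.53 and 3.02 CPM in n-Sen_control, against 3.26 and 2.74 CPM in n-Sen (0.13 ± 0.140, adjusted p = 0.663 by edgeR). The number that fell depended on single libraries: it was 3 without n-Sen replicate 1, 13 without n-Sen replicate 2, 6 without n-Sen_control replicate 1 and 5 without n-Sen_control replicate 2. Replicate 1 had the higher level of the n-Sen pair in each of the 10 except Cdc25c, for example 5.23 against 3.50 CPM for Ect2 and 2.19 against 1.44 CPM for Kif2c. Leaving out n-Sen_control replicate 1 also ended the rise of Tpx2 (0.25, adjusted p = 0.0781 by edgeR).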

How the data were processed

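The deposited tables hold expected counts, estimates per gene with many fractional values, one table with the n-Sen and proliferating libraries and the other with the n-Sen_alkali and n-Sen_control libraries. Per the submitters' processing notes reads were handled with HISAT2 2.1.0, fastp 0.23.2, Subread 2.0.2 (featureCounts) and DESeq2 1.34.0 on build mm10.

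Values were rounded to whole numbers. Genes passing filterByExpr were scaled by TMM and tested with edgeR 4.0.16 in R 4.3.3 (quasi-likelihood test, Benjamini-Hochberg over all genes tested, adjusted p under 0.05). Each table was fitted alone for its own comparison, and n-Sen_control against n-Sen came from a fit of all 8. The SE of a log2 fold change is its size divided by the square root of F, and an interval called 95% is 1.96 SE either way. That multiplier takes no account of the few libraries, so these intervals can be narrower than the test allows. For Ttk in n-Sen_alkali against n-Sen_control the interval ran from 0.03 to 1.76, though its unadjusted p was 0.0545 by edgeR's quasi-likelihood test. The procedure was tested on simulated data. Symbols, exon lengths and overlaps came from GENCODE vM21 on GRCm38, with 54723 of the IDs given a symbol. Sept2 matched 2 IDs and was left out of the 135 other mitotic genes.

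The alternatives were DESeq2 size factors, no filter on low counts, DESeq2 1.42.0, a replicate block, all 8 libraries in 1 fit, and each library left out in turn. The members, the lists of other mitotic and marker genes and the tests were chosen with earlier results of these data known. Named with values per library are the first 2 genes of each role, the 5 largest and 5 smallest falls, the genes that passed between senescent groups and the 4 highest and 4 lowest residual levels. Of the other mitotic genes, up to 2 per role and direction of smallest p are named. Cdc20 in n-Sen against proliferating cells, and Plk1, Top2a, Ttk, Ccna2, Ccnb1 and Tpx2 in alkaline medium, were named after their values were seen.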

Additional observations from a re-analysis of the deposited data

How the results depend on the processing

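All 42 genes fell in n-Sen relative to proliferating cells under each of the 9 alternatives run, with a median log2 fold change of -4.92 to -4.77 when single libraries were left out. Residual medians were 2.33%, 2.62% and 3.36% in n-Sen_alkali, n-Sen_control and n-Sen with DESeq2 size factors, and 2.21%, 2.53% and 3.25% on total counts only. In n-Sen_alkali against n-Sen_control, DESeq2 called 1 of the 42 lower, and 4 of the other mitotic genes higher and 4 lower, where edgeR had 10 each. With all 8 libraries in 1 fit 1 gene was higher (Ttk) and 3 lower (Anln, Kif23 and Top2a). Leaving out single libraries gave 2 to 3 of the 42 lower and 0 higher, and 5 to 10 other mitotic genes higher and 6 to 10 lower. In n-Sen_control against n-Sen it gave 3 to 13 of the 42 lower, 0 to 1 higher and a median of -0.31 to -0.19, and 731 to 816 of all genes higher and 450 to 569 lower, against 1250 and 1003 with every library. A group left with 1 library was assumed to vary like the others. DESeq2 there called 8 lower, without Cdc25c, Ect2 and Kif2c and with Birc5. The cause was not tested, save that fits with a library left out hold fewer samples. No result named for a single gene of the 42 turned its direction. Single genes outside the 42 were not followed through the alternatives. Same-numbered libraries did not deviate together (r of -0.064, -0.015 and -0.010 over 11332 genes in the 3 comparisons). No pairing by number was seen, but these values cannot show whether same-numbered libraries shared a culture. With the replicate number as a block, 42 genes were lower in n-Sen, 3 lower in n-Sen_alkali and 10 lower and 1 higher in n-Sen_control. Counts of 14 or fewer in each n-Sen_control and n-Sen_alkali library limit Cdc25c, Ska1 and Aunip.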

Other observations

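The 2 subunits of centralspindlin, the motor Kif23 and its partner Racgap1, were called in opposite directions by edgeR in alkaline medium. The call on Kif23 ended with DESeq2 (adjusted p = 0.0685). Racgap1 was named here after its values were seen. It had 7.38 and 6.80 CPM in n-Sen_alkali, against 4.90 and 4.97 CPM in n-Sen_control (log2 fold change 0.51 ± 0.149, adjusted p = 0.0151 by edgeR's quasi-likelihood test), while Kif23 changed by -0.85 ± 0.225. In n-Sen_control against n-Sen, which shares libraries with that comparison, Racgap1 had 4.90 and 4.97 CPM in n-Sen_control and 6.71 and 6.93 CPM in n-Sen (-0.47 ± 0.0968).

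Of the 135 other mitotic genes, 10 rose and 10 fell in alkaline medium, and 115 did not pass, with a median of 0.02 on the log2 scale. These shares, 7.41% each way, were under those of all genes (9.58% higher and 10.4% lower). Septins moved apart: Sept9 had 304 and 293 CPM in n-Sen_alkali, against 237 and 233 CPM in n-Sen_control (0.34 ± 0.043), and Sept7 had 440 and 447 CPM in n-Sen_alkali, against 523 and 514 CPM in n-Sen_control (-0.23 ± 0.0397). Stil, the centriole assembly factor, had 6.62 and 6.23 CPM in n-Sen_alkali, against 3.96 and 4.18 CPM in n-Sen_control (0.65 ± 0.157), while Plk4 changed by -0.06 ± 0.192. Ube2s rose by 0.24 ± 0.0523, and Stag2, a cohesin subunit, and Psrc1, a microtubule-binding protein, fell (-0.24 and -0.23). Pttg1, also named after its values were seen in this comparison, had 9.39 and 8.69 CPM in n-Sen_alkali, against 12.7 and 11.4 CPM in n-Sen_control (-0.42 ± 0.120).

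In n-Sen_control against n-Sen, 12 of the 135 fell (8.89%) and 4 rose (2.96%), where of all genes 4.96% fell and 6.18% rose. The 135 were not put through the alternatives in this comparison. Knl1 and Hjurp were named in it after its values were seen. Knl1, the checkpoint platform of the kinetochore, had 0.985 and 0.442 CPM in n-Sen_control, against 2.02 and 1.56 CPM in n-Sen (-1.32 ± 0.256), and Hjurp had 54.2 and 59.0 CPM in n-Sen_control, against 44.9 and 42.7 CPM in n-Sen (0.37 ± 0.0634).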
